A study of Homo sapiens with 12 samples.

Results

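The 9 genes described here encode the human LC3 and GABARAP proteins, MAP1LC3A, MAP1LC3B, GABARAP, GABARAPL1 and GABARAPL2, and the ATG4 cysteine proteases that process them, ATG4A, ATG4B, ATG4C and ATG4D. They were taken by symbol from a count table of 19447 gene symbols, and all 9 had a row. The study sequenced poly-A selected RNA of K562, a human line from chronic myeloid leukemia with the BCR-ABL fusion, and of K562/IM, an imatinib-resistant line raised from it by stepwise exposure to imatinib (IM), a BCR-ABL kinase inhibitor. The 4 groups of 3 libraries were K562 without drug, K562+L (K562 with 6 µM lycorine, an alkaloid of Amaryllidaceae plants), K562/IM (passaged in 5 µM IM, without lycorine) and K562/IM+L (K562/IM with 6 µM lycorine). The study asked how lycorine acts on resistant cells, with autophagy as its main question. The time of exposure before RNA was taken, and whether IM was present at that time, are not given in the sources used here, K562/IM is a single derived line, and nothing states that the libraries of a group came from separate cultures, so that p-values measure the spread between these libraries, which may be technical.

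In autophagy, a double membrane closes around cytoplasm and delivers it to the lysosome. LC3 and GABARAP proteins are small ubiquitin-like proteins that become attached to the lipid phosphatidylethanolamine on that membrane, where they bind cargo receptors and help the membrane to grow and fuse. ATG4 proteases cut the new protein behind a glycine near its end, which makes it ready for lipidation by ATG7, ATG3 and the ATG12-ATG5-ATG16L1 complex, and later release it from the membrane.

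The cut site is shown here because it joins both families. It is given as the last 42 bases of each coding sequence, with the codon of the last glycine in capitals and the stop codon at the end. The transcript is the one tagged principal by APPRIS in GENCODE 29 (GRCh38), and among those of equal rank the one with the longest coding sequence.
MAP1LC3A, chr20:34559857-34559898, plus strand: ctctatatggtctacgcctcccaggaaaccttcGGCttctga
MAP1LC3B, chr16:87403056-87403097, plus strand: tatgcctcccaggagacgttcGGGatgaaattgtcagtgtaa
GABARAP, chr17:7240854-7240895, minus strand: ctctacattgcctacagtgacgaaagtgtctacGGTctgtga
GABARAPL1, chr12:10221811-10221852, plus strand: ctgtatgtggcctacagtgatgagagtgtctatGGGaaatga
GABARAPL2, chr16:75577328-75577369, plus strand: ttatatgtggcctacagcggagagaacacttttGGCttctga
In MAP1LC3B the glycine is codon 120 of 125, so that 5 codons follow it, whereas in the other 4 genes 1 codon follows it. Over the whole coding sequence, GABARAP and GABARAPL1 shared 76.8% of aligned bases, MAP1LC3A and MAP1LC3B 74.8%, and MAP1LC3B and GABARAP 65.2%. The 4 protease genes shared between 61.8% (ATG4B and ATG4C) and 66.9% (ATG4A and ATG4B). A closer copy lies outside the 9 genes: MAP1LC3B2 matched MAP1LC3B at 376 of 378 coding bases, so that the counts of the pair cannot be separated with certainty. It held 2.35 to 4.18 CPM (counts scaled to the TMM-normalized library size) in the 12 libraries, and it passed the test in none of the comparisons below.

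In part of its RNA, the K562/IM+L group stood nearer to K562 than to the line in its label, and this bears on each comparison that uses it. ABCB1, the drug efflux pump P-gp, stood at 1.68, 1.86 and 1.72 CPM in K562, at 3.83, 3.84 and 5.14 in K562+L and at 23.0, 21.9 and 25.8 in K562/IM, but the K562/IM+L libraries held 0.706, 0.490 and 1.06. In all, 1272 genes had an edgeR adjusted p under 0.05 and a fitted absolute log2 difference over 2 between K562/IM and K562. With these genes placed on a scale from 0 (K562) to 1 (K562/IM), the median position of the K562/IM+L libraries was 0.122, 0.115 and 0.177. The K562+L libraries stood at 0.0126 or below on it. Other genes of the K562/IM+L libraries stood near K562/IM: their log2 difference from K562/IM was -0.07 for ATG3 (edgeR adjusted p = 0.536), 0.07 for ATG12 (0.394) and 0.15 for KRT19 (0.269), whereas that from K562 was -0.68 (edgeR adjusted p = 0.00176), -0.30 (0.00962) and 1.04 (0.00203). These 3 genes were picked after their values were seen. EPCAM, an epithelial marker like KRT19, stood apart from K562/IM instead. It held 123 to 132 CPM in K562, 42.8 to 48.0 in K562/IM and 84.2 to 105 in the K562/IM+L libraries. A wrong label and an effect of the treatment cannot be told apart here. These 3 K562/IM+L libraries are called "the labelled libraries" from here on, and were set against both K562/IM and K562. A set of 18 erythroid genes (globins, haem synthesis, red cell membrane, KLF1, GATA1 and TFRC) also moved: all 18 were present, with a summed level of 8235 to 10817 CPM in K562, 5750 to 6396 in K562+L, 3924 to 4071 in K562/IM and 44022 to 60878 in the labelled libraries. Markers of other cells were lower than this but also moved. Lymphocyte markers summed to 23.8 to 25.4 CPM in K562/IM and to 0.496 to 3.50 in the other groups, with MS4A1 at 0 in all 12 libraries. Fibroblast markers summed to 19.3 to 24.5 CPM in K562/IM and to 0.554 to 1.34 elsewhere, and monocyte markers to 165 to 173 CPM in K562/IM, 108 to 127 in the K562 groups and 75.5 to 80.6 in the labelled libraries. Epithelial markers summed to 182 to 279 CPM, a sum in which EPCAM and KRT19 moved in opposite directions between K562 and K562/IM. KRT19 held 59.6 to 87.0 CPM in K562 and 138 to 148 in K562/IM. Total counts ran from 75093844 to 107344598.

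Placed per length, as CPM per kb of the gene's merged exons, the genes fell into a similar order in the 4 groups. In K562 the order was MAP1LC3B (39.1), GABARAP (37.1), GABARAPL2 (31.4), ATG4D (16.6), ATG4A (10.5), GABARAPL1 (9.18), ATG4C (8.19), ATG4B (6.98) and MAP1LC3A (0.0122). Libraries of MAP1LC3B and GABARAP, of GABARAP and GABARAPL2, and of ATG4A and GABARAPL1 overlapped, and the other neighbours were apart. In K562+L MAP1LC3B led at 49.4 CPM per kb, ahead of GABARAP (26.0) and GABARAPL2 (23.7), which overlapped, and ATG4B (7.56), ATG4C (7.20) and GABARAPL1 (7.14) overlapped in turn. In K562/IM the same 3 genes led at 39.8, 30.1 and 19.9 CPM per kb, all apart, and ATG4C (11.6) stood beside ATG4A (11.3). The labelled libraries had GABARAP first at 67.7 CPM per kb and MAP1LC3B second at 50.5, apart from each other, then GABARAPL2 (36.7) and ATG4D (31.0), which overlapped, and ATG4C (7.44) overlapped with ATG4B (8.26) near the bottom.

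The order depended on the length used. With the longest transcript in place of merged exons, GABARAP (93.8 CPM per kb, 76.5 to 107) and MAP1LC3B (86.9, 76.8 to 92.2) overlapped in the labelled libraries, and in K562 MAP1LC3B (67.3) stood apart from GABARAP (51.5). ATG4B then stood above GABARAPL1 in every group, at 14.1 against 11.7 in K562 and 16.6 against 14.1 in the labelled libraries.

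**Figure D1:**
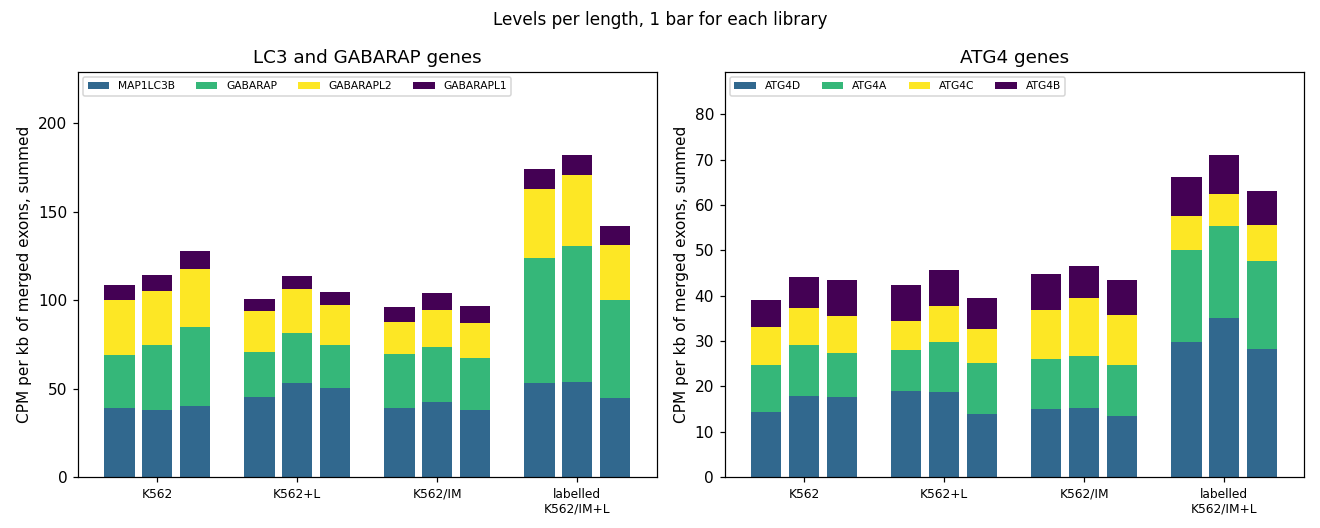
Level per length (CPM per kb of merged exons) in each of the 12 libraries, 1 stacked bar for each library, with the LC3 and GABARAP genes in the left panel and the ATG4 genes in the right panel. MAP1LC3A is left out because at most 10 counts were found in any library. The GABARAP segment has a mean of 67.7 in the labelled K562/IM+L libraries and of 26.0 to 37.1 in the other groups.

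MAP1LC3A, an LC3 form with a gene of its own on chromosome 20 (34546854 to 34560345), was near the floor. Its counts were 0, 0 and 5 in K562, 0 in each K562+L library, 0, 7 and 0 in K562/IM and 0, 10 and 9 in the labelled libraries. Counts of 0 allow up to 3 counts, which corresponds to 0.0279 to 0.0420 CPM across the libraries, or to 0.112 to 0.168 CPM if 1 fragment is worth 4 counts, since low counts piled up near multiples of 4. This limit covers counting error only. The gene was removed by the low-count filter of every comparison, so that 8 of the 9 genes were tested, and MAP1LC3C, another LC3 gene outside the 9, was at 0 counts in all 12 libraries.

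MAP1LC3B (chromosome 16, 87383995 to 87404779) encodes the LC3 form commonly followed on blots of autophagy. It stood at 208, 202 and 213 CPM in K562, 239, 282 and 266 in K562+L, 208, 225 and 202 in K562/IM, and 283, 285 and 237 in the labelled libraries. Every library carrying a lycorine label was above every library without one. The log2 difference was 0.34 (SE 0.0868) between K562+L and K562 (edgeR adjusted p = 0.0186) and 0.36 (SE 0.0892) between the labelled libraries and K562/IM (edgeR adjusted p = 0.00816). The first of these calls was lost in edgeR without K562+L replicate 2 (0.28, adjusted p = 0.0690), without K562+L replicate 3 (0.33, adjusted p = 0.0652) and without K562 replicate 2 (0.32, adjusted p = 0.0880). Between K562/IM and K562 the difference was 0.03, with a 95% interval of -0.14 to 0.19. The contrast in K562/IM minus that in K562 was 0.00 on the log2 scale (interval -0.27 to 0.27, edgeR adjusted p = 0.995). A stretch of 2.82% of its merged exon bases overlaps FBXO31 on the opposite strand, and whether counting used strand is not given in the sources used here.

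GABARAP (chromosome 17, 7240014 to 7242770), first described as a protein that binds the GABA(A) receptor, had the widest range of group means among the 8 tested genes, 1.37 on the log2 CPM scale. Its levels were 68.2, 82.9 and 101 CPM in K562, 58.0, 63.8 and 55.2 in K562+L, 68.5, 69.8 and 66.1 in K562/IM, and 160, 175 and 125 in the labelled libraries. The K562 libraries were spread out, all K562+L libraries lay below them, and the labelled libraries lay above all others. GABARAP was lower in K562+L than in K562 (log2 difference -0.51, SE 0.145, edgeR adjusted p = 0.0263) and higher in the labelled libraries than in the K562/IM group (1.19, SE 0.120, edgeR adjusted p = 9.57e-05), a 2.28-fold difference. The call in K562+L did not pass without K562+L replicate 1 (-0.50), K562+L replicate 3 (-0.47), K562 replicate 2 (-0.52) or K562 replicate 3 (-0.36), with edgeR adjusted p of 0.0902, 0.0863, 0.0706 and 0.0556. Against K562 the labelled libraries differed by 0.84 (SE 0.184, edgeR adjusted p = 0.00650). Of its merged exon bases, 30.5% are shared with AC120057.2, an overlapping coding gene model on the same strand that is not a row of the table, so that reads of the pair may have been split or dropped.

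GABARAPL1 (chromosome 12, 10212458 to 10223130), the closest relative of GABARAP in the alignment above, followed the same directions at smaller size. It stood at 35.2, 36.5 and 40.8 CPM in K562, 27.8, 30.0 and 29.8 in K562+L, 34.3, 38.3 and 39.2 in K562/IM, and 47.6, 45.3 and 42.7 in the labelled libraries. The K562+L libraries lay below all others and the labelled libraries above all others, while K562 and K562/IM overlapped. The log2 difference of K562+L from K562 was -0.36 (SE 0.0928, edgeR adjusted p = 0.0185), and that of the labelled libraries from K562/IM was 0.30 (SE 0.0810, edgeR adjusted p = 0.0123). In edgeR the first did not pass without K562+L replicate 1 (-0.33, adjusted p = 0.0707), K562+L replicate 3 (-0.38, adjusted p = 0.0541) or K562 replicate 2 (-0.38, adjusted p = 0.0594), and the second did not pass without K562/IM replicate 1 (0.24, adjusted p = 0.0610). Against K562 the labelled libraries differed by 0.25, with an edgeR adjusted p of 0.0621 and a DESeq2 adjusted p of 0.0430. In edgeR this difference passed with upper-quartile scaling (adjusted p = 0.0108) and in the fit of all 12 libraries (adjusted p = 0.0142). It also passed there with at least 10 counts in every library (adjusted p = 0.0433) and with counts divided by 4 (adjusted p = 0.0451).

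GABARAPL2, also called GATE-16 (chromosome 16, 75566351 to 75577881), passed the test in 3 of the 4 pairwise comparisons, all but that of the labelled libraries with K562. It stood at 92.8, 93.5 and 99.6 CPM in K562, 70.3, 76.0 and 69.3 in K562+L, 56.1, 64.7 and 60.0 in K562/IM, and 117, 121 and 95.7 in the labelled libraries. The 3 groups without K562/IM+L in their label did not overlap each other, and K562/IM was lowest. The log2 difference from K562 was -0.41 (SE 0.0833, edgeR adjusted p = 0.00788) in K562+L and -0.66 (SE 0.0793, edgeR adjusted p = 3.00e-04) in K562/IM, comparisons that share the K562 libraries. The labelled libraries were higher than K562/IM by 0.91 (SE 0.104, edgeR adjusted p = 1.83e-04), and differed from K562 by 0.20, with an interval of -0.07 to 0.47. In all 6 fits that left out 1 library the difference between K562+L and K562 passed, between -0.45 and -0.37.

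**Figure D2:**
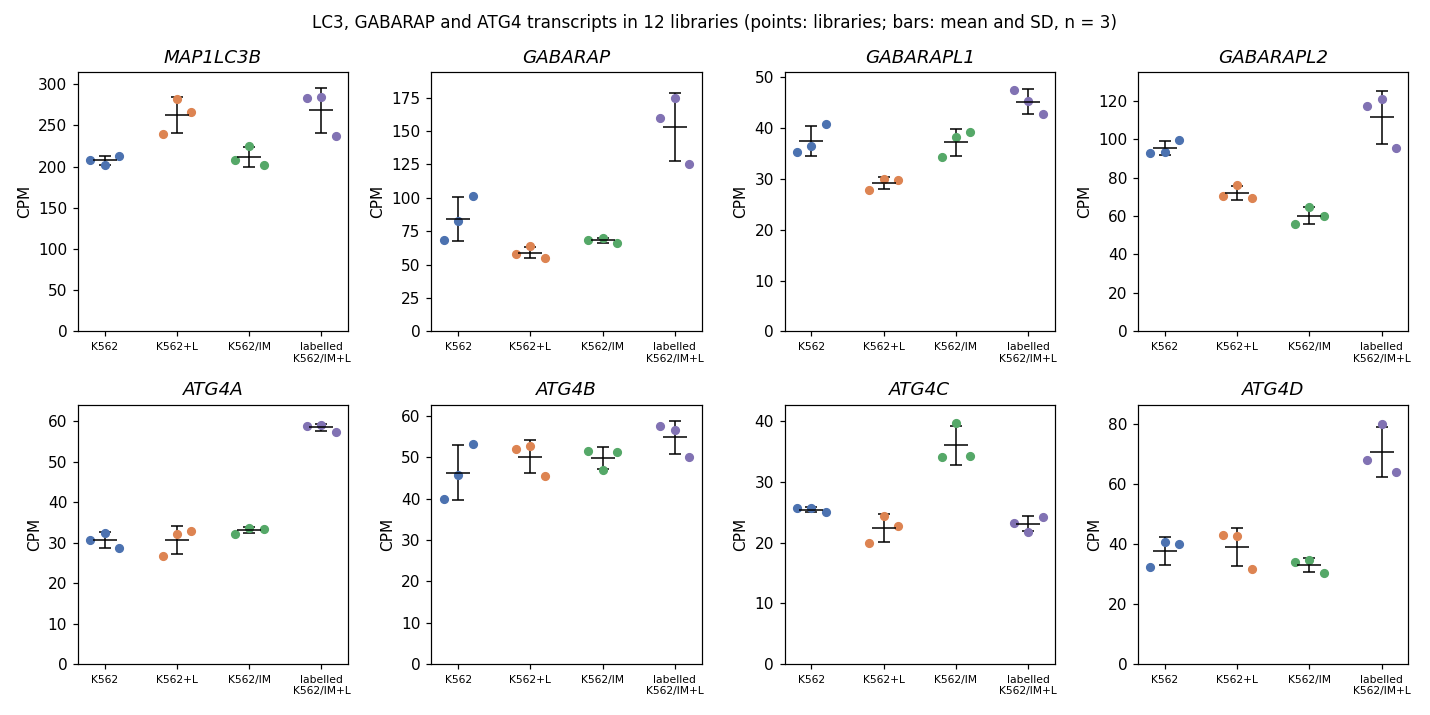
Level of the 8 tested genes in CPM (vertical axis, from 0) by group, with 1 point for each library and a bar for the mean and SD of 3 libraries. GABARAP, ATG4A and ATG4D stand higher in all 3 libraries labelled K562/IM+L than in any other library, and ATG4C stands higher in all 3 K562/IM libraries.

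ATG4A (chromosome X, 108091668 to 108154671), a protease known to favour GABARAP proteins as substrates, had closely spaced libraries. It stood at 30.7, 32.5 and 28.7 CPM in K562, 26.6, 32.2 and 32.9 in K562+L, 32.3, 33.6 and 33.5 in K562/IM, and 58.9, 59.2 and 57.4 in the labelled libraries. The first 3 groups overlapped in part, and the last group stood clear of them. The log2 difference from K562/IM was 0.84 (SE 0.0620, edgeR adjusted p = 2.03e-05) and from K562 it was 0.91 (SE 0.0844, edgeR adjusted p = 1.23e-04). The difference between K562+L and K562 was 0.00 with an interval of -0.26 to 0.25.

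ATG4B (chromosome 2, 241637213 to 241673857), the form with the broadest substrate range and the highest activity on LC3, passed the test in none of the 4 pairwise comparisons. It stood at 40.0, 45.7 and 53.3 CPM in K562, 52.2, 52.7 and 45.6 in K562+L, 51.5, 46.9 and 51.3 in K562/IM, and 57.6, 56.7 and 50.2 in the labelled libraries. Libraries of all 4 groups overlapped, and K562 was the most spread. The intervals of the log2 difference were -0.17 to 0.40 for K562+L against K562, -0.16 to 0.37 for K562/IM against K562, -0.03 to 0.35 for the labelled libraries against K562/IM and -0.08 to 0.52 for the same libraries against K562. Without replicate 3 of the labelled libraries, the difference from K562/IM passed in edgeR (0.22, adjusted p = 0.0135). With upper-quartile scaling, the difference of the labelled libraries from K562 passed (0.37, edgeR adjusted p = 0.0422). THAP4 overlaps 3.57% of its merged exon bases on the opposite strand.

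ATG4C (chromosome 1, 62784135 to 62865513), a protease with weak activity unless its leading part is removed, was the 1 gene of the 8 tested that was called higher in K562/IM than in K562. Its levels were 25.7, 25.7 and 25.1 CPM in K562, 20.0, 24.5 and 22.8 in K562+L, 34.2, 39.7 and 34.3 in K562/IM, and 23.3, 21.8 and 24.3 in the labelled libraries. K562/IM stood above all other libraries, and the remaining groups lay close together. The log2 difference of K562/IM from K562 was 0.50 (SE 0.0864, edgeR adjusted p = 0.00179), and that of the labelled libraries from K562/IM was -0.62 (SE 0.0906, edgeR adjusted p = 6.53e-04), comparisons that share the K562/IM libraries. K562+L differed from K562 by -0.19 (interval -0.42 to 0.05), and the labelled libraries differed from K562 by -0.16 (interval -0.37 to 0.04).

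ATG4D (chromosome 19, 10543895 to 10553418), like ATG4C an enzyme activated by cleavage and linked to the removal of these proteins from membranes, had the highest level per length of the proteases in every group. It stood at 32.5, 40.8 and 40.1 CPM in K562, 43.1, 42.7 and 31.9 in K562+L, 34.0, 34.6 and 30.5 in K562/IM, and 68.0, 80.0 and 64.1 in the labelled libraries. The last group stood clear of the others, which overlapped. The log2 difference of the labelled libraries was 1.12 (SE 0.0999, edgeR adjusted p = 5.19e-05) from K562/IM and 0.88 (SE 0.132, edgeR adjusted p = 0.00115) from K562. K562+L differed from K562 by 0.05, with an interval of -0.28 to 0.39. KRI1 shares 341 bases, 15.0% of the merged exons of ATG4D, on the opposite strand, and its own log2 difference between the labelled libraries and K562/IM was -0.20 (edgeR adjusted p = 0.0618).

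Counted over the 9 genes, lycorine in K562 went with 1 higher gene (MAP1LC3B) and 3 lower genes (GABARAP, GABARAPL1 and GABARAPL2) of 8 tested, beside 37.3% of all 12927 genes that passed in either direction (18.2% higher, 19.0% lower). Leaving out 1 library at a time gave 0 to 1 higher and 1 to 3 lower: without K562+L replicate 1 there was 1 lower gene, without K562+L replicate 3 or K562 replicate 2 there were 0 higher and 1 lower, and without K562+L replicate 2 there were 0 higher. None of the 4 passed with an absolute log2 difference over 1, beside 6.39% of all genes. The median log2 difference of the 8 genes was -0.09, beside 0.00 over all genes tested. All 4 LC3 and GABARAP genes tested passed, and 0 of 4 ATG4 genes did, with edgeR or DESeq2 or at an unadjusted p under 0.05. Summed erythroid markers were lower in K562+L, with 9 of 18 called lower and 1 higher, 1 of 2 lymphocyte markers tested (CD3D) was lower, and their part in these differences was not tested.

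Between K562/IM and K562, 1 gene was higher (ATG4C) and 1 lower (GABARAPL2) of 8, beside 57.1% of the 13406 genes tested that passed in either direction, 30.1% higher and 27.1% lower, and 19.1% with an absolute log2 difference over 1, which no gene of the 8 reached. The median of the 8 genes was 0.01, beside 0.04 over all genes. GABARAP (log2 difference -0.31, edgeR adjusted p = 0.0878) and ATG4D (-0.20, edgeR adjusted p = 0.158) did not pass. Without K562 replicate 1 both did, at -0.47 (edgeR adjusted p = 0.00337) and -0.33 (edgeR adjusted p = 0.00708), which made 3 lower genes. Of the 18 erythroid markers 14 were lower and 1 higher in K562/IM. Of the markers tested, 2 of 2 for lymphocytes, 2 of 3 for monocytes and 3 of 3 for fibroblasts were higher, and for epithelium 1 was higher and 1 lower of 2. Their part in these differences was not tested.

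Between the labelled libraries and K562/IM, 6 genes were higher (MAP1LC3B, GABARAP, GABARAPL1, GABARAPL2, ATG4A and ATG4D) and 1 lower (ATG4C) of 8, beside 66.8% of the 13727 genes tested that passed in either direction, 33.2% higher and 33.6% lower. With a log2 difference over 1 as well, GABARAP and ATG4D remained, beside 14.7% of all genes (28.5% in either direction). The median of the 8 genes was 0.60, beside -0.01 over all genes. All 18 erythroid markers were higher in this comparison, with a median log2 difference of 4.07. Of the markers tested, 2 of 3 for lymphocytes, 2 of 3 for monocytes and 3 of 3 for fibroblasts were lower, and 1 of 2 for epithelium was higher. Their part in the differences of the 9 genes was not tested. Line identity and treatment cannot be told apart here if the label is wrong.

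Set against K562, the same libraries had 4 higher genes (MAP1LC3B, GABARAP, ATG4A and ATG4D) and 0 lower of 8 with edgeR, beside 56.0% of 13307 genes tested that passed in either direction, 28.2% higher and 27.8% lower, and 23.8% with an absolute log2 difference over 1. Both DESeq2 and an unadjusted p under 0.05 gave 5 higher and 0 lower. The MAP1LC3B difference of 0.35 (SE 0.102, edgeR adjusted p = 0.0231) did not pass without replicate 1 (0.29) or 2 (0.29) of the labelled group or without replicate 1 (0.35) or 2 (0.32) of K562, with edgeR adjusted p of 0.0897, 0.0769, 0.0527 and 0.0964. GABARAPL1 passed without replicate 3 of the labelled group (0.30) or of K562 (0.31), and GABARAPL2 passed without replicate 3 of the labelled group (0.31). GABARAPL1 passed as well under the other filters and fits named with its levels. Upper-quartile scaling moved the median of all genes by 0.15 in this comparison and the share of higher calls among all calls from 50.4% to 61.3%, and with it 7 of the 8 genes were higher. Of the erythroid markers 16 of 18 were higher and 0 lower with edgeR (16 and 0 with DESeq2 and at an unadjusted p under 0.05), and in the other lists 1 of 3 lymphocyte markers was lower, 1 monocyte and 1 epithelial marker were higher and 1 of each lower. Their part was not tested.

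The difference of the lycorine-labelled contrasts between the lines, that in K562/IM minus that in K562, was tested over all 12 libraries. It passed for 6 of 8 genes, with 5 higher and 1 lower, beside 61.7% of 13995 genes tested (29.9% higher, 31.7% lower, and 33.7% with an absolute log2 difference over 1). GABARAP fell in K562+L and rose in the labelled libraries, a difference of 1.68 (SE 0.205, edgeR adjusted p = 2.51e-05). GABARAPL2 differed by 1.29 (SE 0.132, edgeR adjusted p = 6.20e-06), ATG4D by 1.04 (SE 0.190, edgeR adjusted p = 5.20e-04), ATG4A by 0.82 (SE 0.122, edgeR adjusted p = 1.14e-04), GABARAPL1 by 0.64 (SE 0.118, edgeR adjusted p = 5.55e-04) and ATG4C by -0.46 (SE 0.131, edgeR adjusted p = 0.00962). For ATG4B the difference was 0.02, with an interval of -0.31 to 0.35. Upper-quartile scaling moved the median of all genes by 0.13 here, and each of these 6 genes still passed in the same direction.

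**Figure D3:**
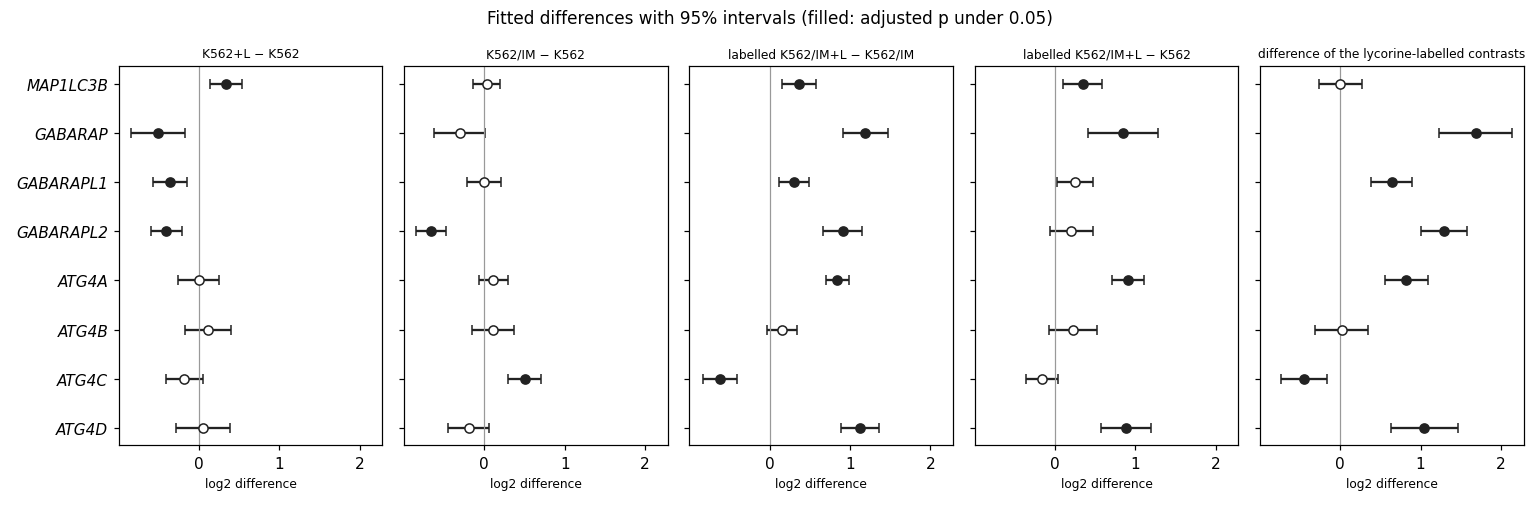
Fitted log2 difference (horizontal axis) with its 95% interval for each of the 8 tested genes, in the 4 pairwise comparisons and the difference of the lycorine-labelled contrasts (K562/IM minus K562). Filled points passed an edgeR adjusted p under 0.05: MAP1LC3B is right of 0 and the GABARAP genes are left of 0 in K562+L, whereas all 4 are right of 0 in the labelled K562/IM+L libraries against K562/IM.

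The makeup of the LC3 and GABARAP family was followed as each gene's percent of the summed level per length of its 5 genes. MAP1LC3B made up 33.6% ± 2.36 (SD, n = 3) in K562, 46.5% ± 1.59 in K562+L, 40.3% ± 0.821 in K562/IM and 30.5% ± 1.00 in the labelled libraries. GABARAP made up 31.6% ± 3.66, 24.5% ± 1.10, 30.4% ± 0.905 and 40.6% ± 1.77 in the same order. GABARAPL2 made up 27.0%, 22.3%, 20.1% and 22.1%, and GABARAPL1 between 6.72% and 9.23%. These shares used merged exons and depend on the length used, and the SD covers only the spread between libraries. With the longest transcript as length, GABARAP stood at 93.8 and MAP1LC3B at 86.9 CPM per kb in the labelled libraries. With 3 libraries against 3, a two-sided exact permutation test cannot go below 0.1, and 14 of the 16 shares compared reached that value (Benjamini-Hochberg adjusted exact p = 0.114). The exceptions were MAP1LC3B in the labelled libraries against K562 (exact p = 0.2) and GABARAP in K562/IM against K562 (exact p = 0.7), and the latter turned from -1.17 to 0.544 percentage points without K562 replicate 3. These 16 are not separate results, since the shares within a library depend on each other and the comparisons share groups. Among the proteases ATG4D had the largest share in each group, 39.2%, 40.5%, 32.3% and 46.4% in the same order, and ATG4C ranged from 11.2% in the labelled libraries to 25.8% in K562/IM.

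The 3 genes with the widest range of group means were GABARAP (1.37 on the log2 CPM scale), ATG4D (1.09) and ATG4A (0.94). For each, the 3 genes with the most similar profile over the 12 libraries among 13987 genes were named. They were CST3, ATRAID and USF2 for GABARAP (Pearson r = 0.996, 0.994 and 0.994), VPS51, MZF1 and ALDH16A1 for ATG4D (0.984, 0.981 and 0.981), and ADPRHL1, KATNBL1 and PIP5KL1 for ATG4A (0.989, 0.985 and 0.984). These are descriptions, since the 12 libraries share 4 groups.

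Promoter windows from 250 bases before to 50 after the start were found in RefSeq (GRCh38.p14) for 7 of the 9 genes, not for MAP1LC3A and ATG4D. The bases before the start are printed for GABARAP and ATG4A, which both were higher in the labelled libraries, with CpG pairs in capitals.
GABARAP, chr17:7242450-7242699, minus strand: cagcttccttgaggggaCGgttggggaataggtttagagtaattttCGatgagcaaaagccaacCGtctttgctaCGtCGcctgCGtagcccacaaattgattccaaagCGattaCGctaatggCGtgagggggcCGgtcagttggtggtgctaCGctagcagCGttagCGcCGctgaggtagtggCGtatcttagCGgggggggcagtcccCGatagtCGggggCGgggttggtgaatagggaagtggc
ATG4A, chrX:108091528-108091777, plus strand: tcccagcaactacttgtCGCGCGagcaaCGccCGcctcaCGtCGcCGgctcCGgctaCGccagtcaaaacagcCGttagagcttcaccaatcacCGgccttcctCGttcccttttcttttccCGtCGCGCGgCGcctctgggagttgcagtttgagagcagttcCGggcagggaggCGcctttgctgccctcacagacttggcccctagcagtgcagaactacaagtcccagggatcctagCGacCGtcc
The stretch before the GABARAP start holds 19 CpG pairs and that before the ATG4A start 22. Over the full windows of 300 bases the 7 genes held from 18 (GABARAPL1) to 50 (ATG4B) CpG pairs, beside a median of 14 in 35116 promoters. Both strands of the 7 windows were searched for 5 motifs, and 0 matches were found. They were the E-box CACGTG, and the longer E-box TCACGTG that TFEB prefers, which contains it. Binding letters of FOXO factors were taken as TGTTTAC. Those of ATF4 with a partner were taken as TGATGNAAN. Those of erythroid zinc finger factors such as GATA1 were taken as AGATAA. Of all 35116 promoters, 7.26%, 3.71%, 3.42%, 3.61% and 10.3% held these letters.

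A list of 8 conjugation genes and their partners was followed: ATG7, ATG3, ATG10, ATG5, ATG12, ATG16L1, ATG16L2 and TECPR1. Not all of their proteins attach LC3 and GABARAP to lipid themselves. Beside their counts, the shares of all genes that passed in either direction were 37.3% in K562+L, 57.1% in K562/IM, 66.8% in the labelled libraries against K562/IM and 56.0% against K562. In K562+L 0 rose and 2 fell with edgeR (0 and 2 with DESeq2, 0 and 3 at an unadjusted p under 0.05), ATG5 by -0.40 (SE 0.107, edgeR adjusted p = 0.0216) and ATG10 by -0.36 (SE 0.0915, edgeR adjusted p = 0.0171), with a median of -0.18 beside 0.00 over all genes, and ATG16L2 at 0.56 did not pass (edgeR adjusted p = 0.368). In K562/IM 1 rose and 2 fell, and the riser was ATG16L2, a relative of ATG16L1, at a log2 difference of 5.34 (SE 0.215, edgeR adjusted p = 1.74e-06). Those that fell were ATG3 (-0.57, edgeR adjusted p = 4.82e-04) and ATG12 (-0.32, edgeR adjusted p = 0.00496). Between the labelled libraries and K562/IM, 2 rose and 3 fell, with TECPR1, an ATG5 binding protein, at 1.02 (SE 0.0789, edgeR adjusted p = 2.63e-05) and ATG16L2 at -3.50 (SE 0.165, edgeR adjusted p = 2.57e-06). Against K562 the same libraries had 3 higher and 4 lower, with ATG16L2 at 1.80 (SE 0.372, edgeR adjusted p = 0.00518) and TECPR1 at 1.23 (SE 0.103, edgeR adjusted p = 7.98e-05). The ATG16L2 differences from K562 rest on low counts, 25, 36 and 18 in K562 (0.231 to 0.429 CPM). In the labelled libraries its counts were 111, 75 and 93, and its level in K562/IM was 12.5 to 13.8 CPM.

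The receptors that bind LC3 and GABARAP were followed through 12 genes, of which RETREG1 passed the low-count filter only in the comparison of the labelled libraries with K562 among the 4 pairwise ones. In K562+L 2 of 11 rose (18.2% of all genes did, and 19.0% fell), SQSTM1, which encodes p62, by 1.23 (SE 0.0922, edgeR adjusted p = 1.73e-04) and NCOA4, the receptor for ferritin, by 1.10 (SE 0.184, edgeR adjusted p = 0.00375), and 2 fell (OPTN and BNIP3). In K562/IM 2 rose and 2 fell (30.1% and 27.1% of all genes), with BNIP3, a receptor for mitochondria, at -1.36 (SE 0.0821, edgeR adjusted p = 9.98e-06). SQSTM1 was among those that rose (0.34, edgeR adjusted p = 0.00969). It held 162 to 173 CPM in K562/IM and 215 to 256 in the labelled libraries. Between the labelled libraries and K562/IM, 7 of 11 rose and 1 fell (33.2% and 33.6% of all genes), with NCOA4 at 2.02, OPTN, a receptor for ubiquitin-tagged cargo, at 1.72, NBR1, a relative of p62, at 1.08 and CCPG1, a receptor of the endoplasmic reticulum, at -1.32. Their median was 0.50, beside -0.01 over all genes. Against K562 6 of 12 were higher and 2 lower (28.2% and 27.8% of all genes), with NCOA4 at 1.79, OPTN at 1.73, NBR1 at 1.01 and CCPG1 at -1.01. The CCPG1 libraries were spread and overlapped here, at 40.9, 86.1 and 93.3 CPM in K562 and 27.3, 29.7 and 54.4 in the labelled libraries.

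Of 8 transcription factors known to act on autophagy or red cell genes (TFEB, TFE3, MITF, FOXO1, FOXO3, ATF4, DDIT3 and GATA1), 3 rose and 1 fell in K562+L, where 37.3% of all genes passed in either direction. FOXO3 rose by 1.29 (SE 0.128, edgeR adjusted p = 4.92e-04), DDIT3 by 0.92 (SE 0.117, edgeR adjusted p = 0.00135) and FOXO1 by 0.45 (SE 0.125, edgeR adjusted p = 0.0260), and ATF4 fell by 0.67 (edgeR adjusted p = 0.00138). In K562/IM 1 rose (DDIT3, 0.89) and 1 fell (ATF4, -0.26), beside 57.1% of all genes in either direction, and TFE3 at 0.44 did not pass (edgeR adjusted p = 0.215). Between the labelled libraries and K562/IM, 3 rose and 2 fell, beside 66.8% of all genes, with TFEB, a regulator of lysosome genes, at -1.19 (SE 0.173, edgeR adjusted p = 6.28e-04). Against K562 the same libraries had 2 higher and 2 lower, beside 56.0% of all genes, with TFEB at -1.03 (SE 0.161, edgeR adjusted p = 0.00141).

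**Figure D4:**
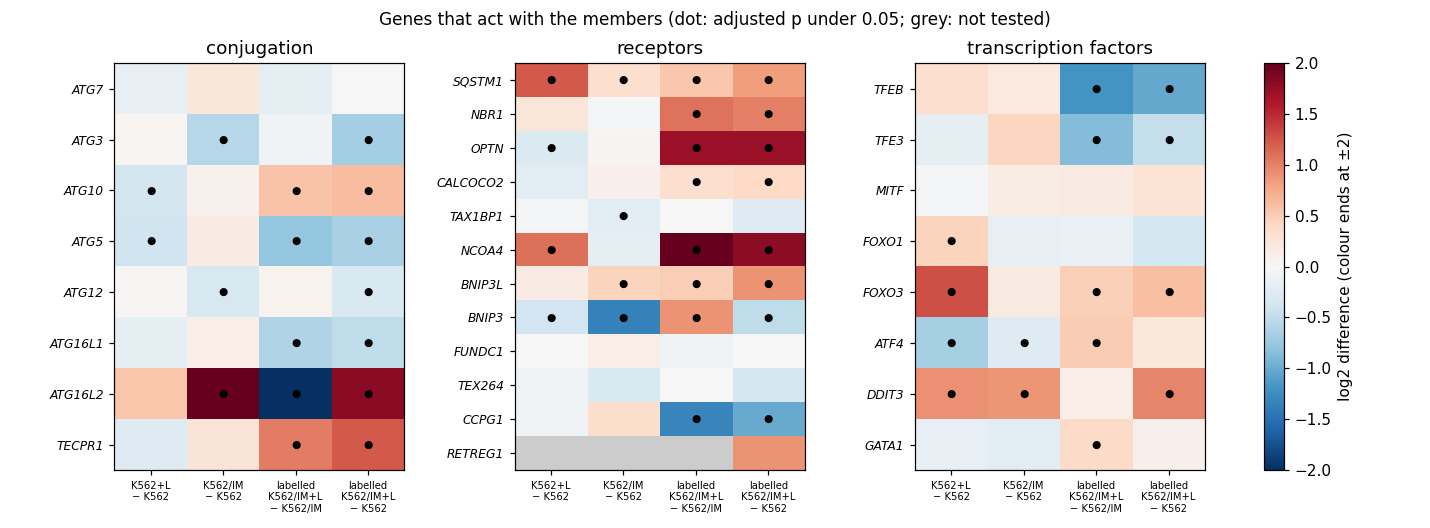
Log2 difference (colour, ending at ±2) of the conjugation genes, the receptors and the transcription factors in rows, for the 4 pairwise comparisons in columns, with a dot where the edgeR adjusted p was under 0.05 and grey where a gene was not tested. ATG16L2 is at 5.34 in K562/IM and at -3.50 in the labelled K562/IM+L libraries against K562/IM, and NCOA4 has a dot in K562+L and in both comparisons of the labelled K562/IM+L libraries.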

How the data were processed

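Poly-A RNA of 12 libraries, 3 per group, was analysed, grouped by the treatment in the labels. The authors deposited 1 table of raw counts per gene symbol. The submitters' processing notes name FastQC, STAR, StringTie, DESeq2 and hg38, and which of them made the counts, and whether strand was used, is not given in the sources used here. Of 23289 values from 1 to 25, 67.9% were a multiple of 4 or 1 above one, beside 52% of whole numbers in that range. The 52% takes each whole number once, and counts need not be spread evenly, so it is a rough mark. If 1 fragment was worth several counts, counting noise may exceed what totals give. Total counts were 75093844 to 107344598. No 2 libraries of a group were alike within counting noise (chi-square per gene at least 8.64, on counts divided by 4). The highest value was 53.9, between K562 replicates 1 and 3. Among the labelled libraries it was 10.9 between replicates 1 and 2, 40.6 between 1 and 3, and 50.4 between 2 and 3. No batch or date is in the labels.

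Counts were filtered (filterByExpr, minimum count 10), scaled by TMM and fitted by edgeR's quasi-likelihood test (R 4.3.3, edgeR 4.0.16, limma 3.58.1), with Benjamini-Hochberg adjustment over all genes tested and a threshold of 0.05. The SE is the log2 difference divided by the square root of F. Each comparison used its 6 libraries, and the difference of contrasts used 12. CPM used TMM over 12 libraries, and lengths came from GENCODE 29 (GRCh38). Comparisons with K562 share its libraries, as do those with K562/IM. Erythroid and other cell type markers were summed as CPM. Profiles were compared by Pearson r of log2 CPM (prior count 2). Each fit was first tested on simulated data in which 200 genes had been changed. That simulation gave every gene the same spread and changed only well-counted genes, so it checks the fitting steps and not the spread of these libraries.

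The genes, the lists and the label check were chosen with earlier results of these data known. Named are all 9 genes and, from the lists, members called with an absolute log2 difference over 1 or the 2 with the largest change. Other mentions of list members were chosen after their values were seen (OPTN, BNIP3, ATF4, DDIT3, FOXO1, ATG3, ATG5, ATG12, SQSTM1, KRT19 and EPCAM). So were the overlapping genes FBXO31, THAP4 and KRI1. Alternatives were DESeq2 1.42.0, upper-quartile and RLE scaling, 2 other filters, counts divided by 4, a single fit of all 12 libraries, a block for the replicate number, fits without each library in turn, a fold threshold and longest-transcript lengths. Groups of 3 are too small to test for an outlying library. Protein measurements were not analysed here.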

Additional observations from a re-analysis of the deposited data

Results flagged for a closer look

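For 6 of the 9 genes the lycorine-labelled contrast differed between the lines by a test of that difference over 12 libraries (edgeR's quasi-likelihood test, adjusted p in each sentence), and each rests on the libraries labelled K562/IM+L, part of whose RNA stood nearer to K562 than to K562/IM. GABARAP differed by 1.68 on the log2 scale (adjusted p = 2.51e-05). GABARAPL1 differed by 0.64 (adjusted p = 5.55e-04). GABARAPL2 differed by 1.29 (adjusted p = 6.20e-06). ATG4A differed by 0.82 (adjusted p = 1.14e-04). ATG4C differed by -0.46 (adjusted p = 0.00962). ATG4D differed by 1.04 (adjusted p = 5.20e-04). Beside these, 61.7% of all genes tested passed the same test.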

How the results depend on the processing

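With the replicate number of the labels as a block, K562+L against K562 gave 0 higher and 1 lower of the 9 genes and 3126 of all genes, against 1, 3 and 4821 without it. The calls not made under it were MAP1LC3B, GABARAP and GABARAPL1 (edgeR adjusted p of 0.0725, 0.0557 and 0.0628), and the difference of MAP1LC3B from K562 in the labelled libraries, those labelled K562/IM+L, was 0.34 and no longer passed (edgeR adjusted p = 0.0978). The block changed no other call. Same-numbered libraries did not deviate together in each pair (correlations of -0.215, 0.0613 and -0.511 between K562 and K562+L, and of 0.00788, 0.0945 and 0.121 between K562/IM and the labelled libraries, where 3 of 3 correlated best with their own number), so that the numbers were not read as a pairing.

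Requiring an absolute log2 difference over 1 as well left 0 higher, 0 lower and 826 of all genes in K562+L, 0, 0 and 2566 in K562/IM, 2, 0 and 3917 in the labelled libraries against K562/IM, 0 higher and 3162 of all genes against K562, and 3, 0 and 4720 for the difference of contrasts. Upper-quartile scaling gave 7 higher genes in the labelled libraries against K562. GABARAPL1 in K562/IM against K562, at -0.01, was at 0.0383 with upper-quartile scaling and at 0.00703 with at least 10 counts in every library, and the MAP1LC3B difference of contrasts was at -0.00203 without a filter. With the longest transcript as length, the mean levels over 12 libraries were 77.0 CPM per kb for MAP1LC3B, 55.8 for GABARAP, 37.3 for GABARAPL2, 23.2 for ATG4D, 15.3 for ATG4A, 15.3 for ATG4B and 11.6 for GABARAPL1, and the 16 share differences kept their direction.

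Leaving out 1 library at a time, K562+L against K562 gave 0 to 1 higher, 1 to 3 lower and 2871 to 5823 of all genes, and ATG4A ran from -0.0594 to 0.0870 and ATG4D from -0.0557 to 0.183. K562/IM against K562 gave 1 to 3 lower, with GABARAPL1 from -0.0852 to 0.0491, MAP1LC3B from -0.0203 to 0.0622 and ATG4B from -0.0233 to 0.207, and the GABARAP share from -3.10 to 0.544 points. The difference of contrasts ran from -0.0774 to 0.0827 for MAP1LC3B and from -0.0923 to 0.131 for ATG4B. The cause was not tested. Under the other alternatives, 298 of the single-gene differences kept their direction and side of the threshold, 7 newly passed, 4 no longer passed and 3 turned direction.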
